A study of Mus musculus with 346 samples.

Results

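The genes described here are the transcription factor Atf4, 12 of its known target genes and the 20 genes of the cytosolic aminoacyl-tRNA synthetases, 33 of the 20474 genes in the table. They were picked by name from textbook membership of the pathway, with earlier results of these data known. The 12 targets are Ddit3, Trib3, Chac1, Asns, Psat1, Phgdh, Psph, Shmt2, Mthfd2, Slc7a11, Slc3a2 and Sesn2. The synthetases are Aars, Cars, Dars, Eprs, Gars, Hars, Iars, Kars, Lars, Mars, Nars, Qars, Rars, Sars, Tars, Vars, Wars, Yars and the 2 phenylalanine subunit genes Farsa and Farsb. All 33 were present in the table.

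The study sequenced single mouse cells with Smart-seq2, a full-length transcript method. All 346 cells came from embryos of a Tg(Prox1-EGFP) transgenic line and were sorted for green fluorescence, so every group carries the reporter and none is an untreated wild type. The groups are 82 cells of E8.5 foregut (plate 1A), 86 cells of the E10.5 dorsal pancreatic bud (plate 2A with 48 and plate 2B with 38), 27 cells of the E10.5 ventral pancreatic bud (plate 3), 78 cells of E10.5 liver (plate 5A) and 73 cells of E14.5 pancreas (plate 4A). The labels name no embryo, so how many embryos were pooled is not known, and each group counts as 1 sample. Every SD below is a spread over cells, no test was run, and outside the dorsal bud plate and group cannot be told apart.

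Atf4 is the main effector of the integrated stress response. Kinases that sense amino acid shortage, unfolded protein in the endoplasmic reticulum, viral RNA or lack of heme phosphorylate the initiation factor eIF2. General translation then slows while Atf4 messenger RNA is translated more, so its protein can change without its transcript. Atf4 protein pairs with C/EBP proteins on a composite DNA element and switches on amino acid synthesis and import, charging of tRNAs, and, when stress lasts, Ddit3, Trib3 and Chac1. Cytosolic synthetases attach each amino acid to its tRNA, and some of them sit together in a multisynthetase complex. The developing liver and pancreas secrete large amounts of protein and so depend on both supply lines.

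The composite element was searched for around the transcription starts of the members, because it is the sequence feature that this pathway is known for. RefSeq promoter windows (GRCm38.p6, 250 bases before to 50 after the start) were at hand for 26 members, which are Atf4 with its 12 targets and 13 synthetases. Cars, Hars, Lars, Nars, Rars, Vars and Wars had no entry. The motif TGATGNAA, read on both strands and so also as TTNCATCA, was found in 4 of 13 genes of Atf4 and its targets and in 5 of 13 synthetases. The lines below give the matches of 8 of these genes within 30 bases, 5′ to 3′ along the transcript, with the match in capitals.
Trib3, chr2:152344028-152344057, minus strand: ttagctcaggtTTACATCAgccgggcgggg
Chac1, chr2:119351038-119351067, plus strand: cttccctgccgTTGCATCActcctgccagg
Asns, chr6:7693214-7693243, minus strand: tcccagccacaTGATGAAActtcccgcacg
Slc7a11 upstream match, chr3:50443661-50443690, minus strand: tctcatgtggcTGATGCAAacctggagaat
Slc7a11 downstream match, chr3:50443642-50443671, minus strand: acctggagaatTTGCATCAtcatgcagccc
Gars, chr6:55037960-55037989, plus strand: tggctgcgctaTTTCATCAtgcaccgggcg
Iars, chr13:49682126-49682155, plus strand: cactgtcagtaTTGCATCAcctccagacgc
Tars, chr15:11399655-11399684, minus strand: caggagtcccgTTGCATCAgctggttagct
Yars, chr4:129189895-129189924, plus strand: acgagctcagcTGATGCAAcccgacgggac

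The matches of Trib3 (15 bases), Iars (8) and Yars (4) begin after the RefSeq start. Those of Chac1 (-193 from the start), Slc7a11 (-66 and -47), Asns (-23), Gars (-30) and Tars (-15) lie before it. For Trib3 and Asns this depends on the annotation. The GENCODE genes start at chr2:152344032 and chr6:7693254, which puts the Trib3 match before the start and the Asns match after it. The motif was in 3.97% of all 32851 promoter windows of the same length and in 2.65% of the 12613 genes of the table that had a window. Among targets the share was 30.8%, among cytosolic synthetases 38.5%, among 20 further genes of the Atf4 pathway 30%, and among 14 mitochondrial synthetases 0. The cyclic-AMP element TGACGTCA, a palindrome searched once, was in no member window and in 1.79% of all windows. These are letter matches and say nothing of binding in these cells.

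Bases before the start are shown for 3 members that the values below turn on, one of each kind. Chac1 is a stress gene with a match, Gars a synthetase with a match, and Phgdh a serine enzyme without one. Capitals again mark the motif.
Chac1, chr2:119350992-119351241, plus strand: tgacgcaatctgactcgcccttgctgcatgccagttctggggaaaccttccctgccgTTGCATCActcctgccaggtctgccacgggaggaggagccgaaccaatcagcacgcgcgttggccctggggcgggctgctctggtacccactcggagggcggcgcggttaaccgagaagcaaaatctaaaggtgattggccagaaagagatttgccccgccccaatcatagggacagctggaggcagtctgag
Gars, chr6:55037751-55038000, plus strand: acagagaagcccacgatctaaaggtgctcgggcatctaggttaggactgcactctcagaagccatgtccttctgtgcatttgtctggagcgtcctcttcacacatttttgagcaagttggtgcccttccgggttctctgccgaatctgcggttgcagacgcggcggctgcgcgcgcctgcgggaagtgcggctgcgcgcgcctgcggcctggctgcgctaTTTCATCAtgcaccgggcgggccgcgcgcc
Phgdh, chr3:98339970-98340219, minus strand: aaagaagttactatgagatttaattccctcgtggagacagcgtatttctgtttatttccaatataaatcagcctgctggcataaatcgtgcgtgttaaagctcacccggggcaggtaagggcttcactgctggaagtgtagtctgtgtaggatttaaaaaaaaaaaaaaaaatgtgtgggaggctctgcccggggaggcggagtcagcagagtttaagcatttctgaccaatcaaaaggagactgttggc
The Chac1 window was 60.8% G and C, the Gars window 62.4% and the Phgdh window 44%.

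A level is the average of log2(normalized reads + 1) over the cells of a plate or group, and a cell is called positive for a gene from 5 normalized reads up. Median reads per cell lay between 811359 (E14.5) and 1029064 (foregut) on 5 plates and were 2510705 in the liver, with single cells from 510222 to 3431728. Median genes detected per cell were 5793.5 on 1A, 4570 on 2A, 5390 on 2B, 3695 on plate 3, 2813 on 5A and 2844 on 4A, and this order moves with much of what follows. Cell type markers went against some labels. Of the 73 E14.5 cells 58 had at least 3 mesenchyme markers and 13 had at least 2 epithelial markers, and of the 82 foregut cells 60 had at least 3 neural tube markers. In the liver 47 of 78 cells had at least 3 hepatoblast markers, and in the dorsal bud 23 of 86 had at least 3 endocrine markers. All 8 epithelial markers were detected on every plate, and their summed mean level was 11.4, 53.8, 40.9, 56.7, 11.7 and 9.49 on plates 1A, 2A, 2B, 3, 5A and 4A. The part of these differences in the results was not tested except where a value within one marker class is given.

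Atf4 itself (chr15:80255184-80257541, plus strand) was found in about 3 of 4 foregut and dorsal bud cells and in a minority of cells elsewhere. The foregut mean was 4.86 ± 3.00 (SD over 82 cells; lowest 0, median 6.16, highest 8.97), with 60 cells positive (73.2%, exact Clopper-Pearson 95% interval 62.2 to 82.4%). Intervals here and below cover counting error only. Dorsal plate 2A had 5.34 ± 3.32 (48 cells; 0, 6.65, 9.33), with 35 positive (72.9%, 58.2 to 84.7%), and plate 2B 4.71 ± 2.71 (38 cells; 0, 5.78, 8.83), with 29 positive (76.3%, 59.8 to 88.6%). Both dorsal plates therefore gave like shares. The ventral bud had 0.84 ± 2.44 (27 cells; 0, 0, 8.17), with 3 positive (11.1%, 2.35 to 29.2%). The liver had 2.59 ± 3.70 (78 cells; 0, 0, 10.36), with 26 positive (33.3%, 23.1 to 44.9%). At E14.5 the mean was 1.79 ± 3.26 (73 cells; 0, 0, 10.22), with 18 positive (24.7%, 15.3 to 36.1%). The ranges of single cells overlapped on all plates, and the groups differed in how many cells held Atf4 more than in how much a positive cell held. The mean in positive cells was 6.61 on 1A, 7.21 on 2A, 6.01 on 2B, 7.55 on plate 3, 7.38 on 5A and 7.17 on 4A. After thinning every cell to 500000 reads, Atf4 was found in 61 of 82 foregut, 64 of 86 dorsal, 3 of 27 ventral, 24 of 78 liver cells and 18 of 73 at E14.5. In the order of means, foregut and both dorsal plates stood within 0.63 of each other, the size of the gap between the dorsal plates, and the ventral bud stood lowest.

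**Figure D1:**
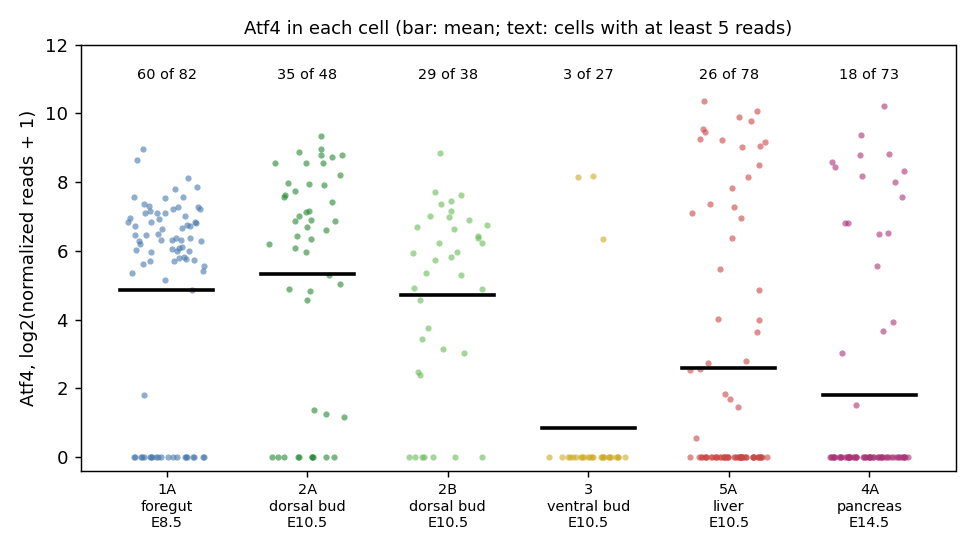
Atf4 in each cell, as log2(normalized reads + 1) on the vertical axis and plate on the horizontal axis; each point is a cell, bars are plate means, and the text gives the cells with at least 5 normalized reads. Positive cells overlap in level on all 6 plates, with a wider spread in the liver (SD 2.41) and at E14.5 (2.03) than in the foregut (0.82). Their number drops from 60 of 82 in the foregut to 3 of 27 in the ventral bud.

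Psat1 and Phgdh, enzymes of serine synthesis, had the widest ranges of plate means among the targets. Phgdh, which opens the pathway from glycolysis to serine, was high in the foregut, the ventral bud and the liver, intermediate in the dorsal bud and low at E14.5. Its mean was 7.37 ± 1.82 in the foregut (median 7.86, highest 9.17), where 78 of 82 cells had it. On 2A it was 3.92 ± 3.81 (lowest 0, median 3.70, highest 9.04; 25 of 48 cells) and on 2B 6.03 ± 3.62 (0, 7.85, 9.64; 28 of 38), so the dorsal plates differed by 2.10. It was 7.15 ± 3.88 in the ventral bud (0, 8.82, 10.79; 21 of 27), 7.14 ± 4.71 in the liver (0, 9.86, 12.48; 56 of 78) and 2.05 ± 3.58 at E14.5 (0, 0, 10.20; 19 of 73). Foregut, ventral bud and liver were 2.52, 2.30 and 2.28 above the pooled dorsal bud, little more than the gap between the dorsal plates. E14.5 was below it by a difference of -2.80.

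Psat1, the aminotransferase of the second step, had means of 7.41 ± 2.36 in the foregut (76 of 82 cells), 2.85 ± 3.92 on 2A (18 of 48) and 4.59 ± 3.97 on 2B (22 of 38). It had 3.27 ± 3.90 in the ventral bud (13 of 27), 5.81 ± 5.06 in the liver (45 of 78) and 1.28 ± 3.02 at E14.5 (11 of 73). Foregut was 3.80 and liver 2.19 above the dorsal bud, against 1.74 between its plates. Psph, the phosphatase that ends the pathway, was found in 54 of 82 foregut, 11 of 48 and 18 of 38 dorsal, 12 of 27 ventral, 35 of 78 liver cells and 8 of 73 at E14.5, and its exons overlap those of Cct6a on the opposite strand. Compared per length, Phgdh was the highest of the 33 genes in the liver (543 mean normalized reads per kilobase) and the ventral bud (287), with Psat1 second in the liver (335).

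The next genes turn serine into glycine and folate-bound one-carbon units, make asparagine and import amino acids. Shmt2, the mitochondrial serine hydroxymethyltransferase, did not follow Phgdh. Its mean was 5.78 ± 3.32 in the foregut, 6.10 ± 3.62 on 2A, 5.27 ± 3.46 on 2B, 3.18 ± 4.00 on plate 3 (ventral), 3.08 ± 4.41 on 5A (liver) and 1.40 ± 3.11 on 4A (E14.5). It was below the dorsal bud in ventral bud, liver and E14.5 (differences -2.55, -2.65 and -4.33), though its exons overlap those of Ndufa4l2 on the opposite strand. Mthfd2, a mitochondrial folate enzyme, was in 59 of 82 foregut cells, 13 of 48 on 2A, 21 of 38 on 2B, 6 of 27 ventral, 30 of 78 liver cells and 7 of 73 at E14.5. Asns, asparagine synthetase, was in 55, 14, 15, 4, 28 and 8 cells of those plates. Both were thus found most often in the foregut.

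Slc3a2, the heavy chain of several amino acid transporters, was among the most widespread targets. It was in 77 of 82 foregut, 35 of 48 and 30 of 38 dorsal, 17 of 27 ventral, 39 of 78 liver cells and 29 of 73 at E14.5, with means of 7.48, 5.90, 5.99, 4.71, 4.41 and 3.38. Slc7a11, the cystine transporter that pairs with it, was near absent: 2 cells on 2B and 1 in the liver. Its 0 of 82 foregut cells allows a share of up to 3.66% and its 0 of 73 cells at E14.5 up to 4.11%. Slc7a11 thus had 2 motif matches in its window and almost no reads.

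**Figure D2:**
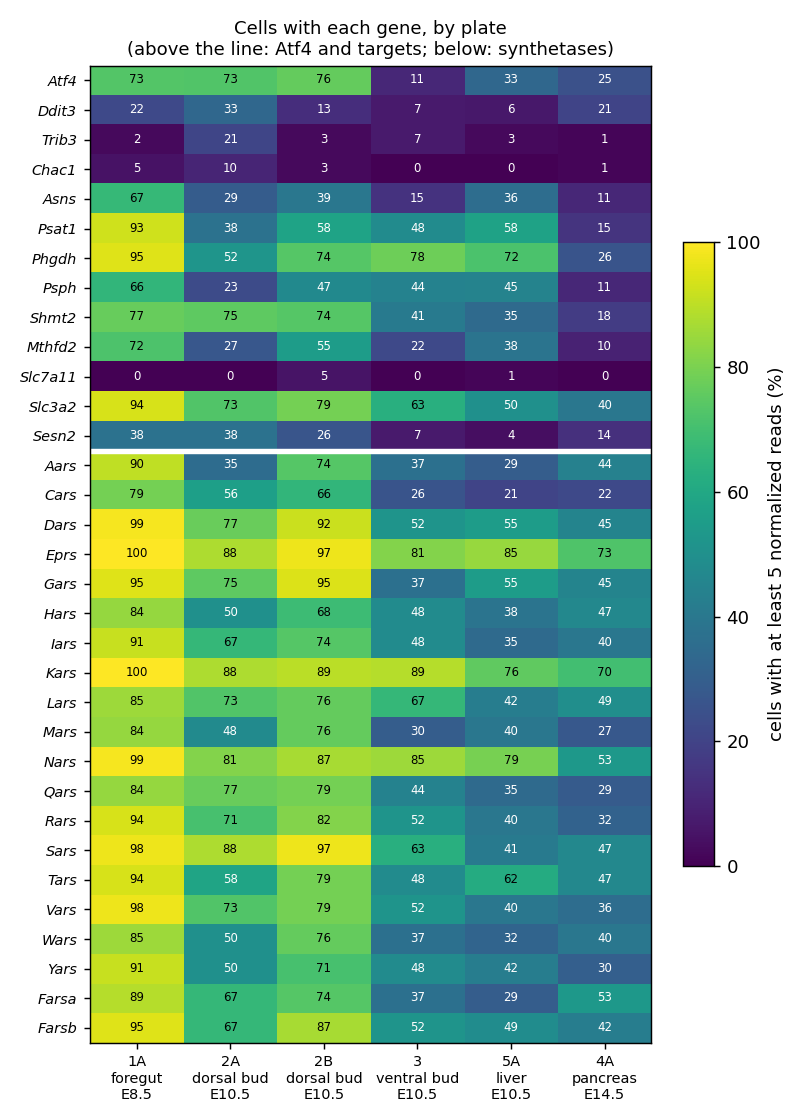
Share of cells with at least 5 normalized reads of each gene (colour, in percent), with genes in rows and the 6 plates in columns; Atf4 and its targets stand above the white line and the synthetases below it. Yellow marks high and dark blue low shares: the foregut column is brightest for most rows, and Slc7a11, Chac1 and Trib3 are dark on nearly all plates.

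Of the targets tied to lasting stress, Trib3 and Chac1 were found in few cells, most often on dorsal plate 2A, and Ddit3 was found on every plate. Ddit3, the factor CHOP, was found in 18 of 82 foregut cells (21.95%, 13.6 to 32.5%), 16 of 48 on 2A (33.3%, 20.4 to 48.4%), 5 of 38 on 2B (13.2%, 4.41 to 28.1%), 2 of 27 ventral, 5 of 78 liver cells and 15 of 73 at E14.5 (20.5%, 11.98 to 31.6%). Its exons overlap those of the synthetase gene Mars on the opposite strand, so their reads may be mixed. Per length, Ddit3 had 54.3 mean normalized reads per kilobase at E14.5 against 28.01 in the dorsal bud. Trib3, a pseudokinase that restrains Atf4 signalling, was in 10 of 48 cells on 2A (20.8%, 10.5 to 34.99%) and in 2, 1, 2, 2 and 1 cells of 1A, 2B, 3, 5A and 4A. Chac1, which degrades glutathione, was in 4 foregut cells, 5 cells of 2A, 1 of 2B and 1 at E14.5. No ventral or liver cell had it, which allows shares of up to 11.1% and 3.85%.

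Atf4 was in 35 of the 48 cells of 2A, so most cells with any of these genes also held it. Of the 16 Ddit3 cells 15 held Atf4, where the product of the 2 shares gives 11.7, and of the 10 Trib3 cells 8 did, where it gives 7.29. All 5 Chac1 cells held Atf4 (product 3.65) and Ddit3 (product 1.67), and 5 Trib3 cells held Ddit3 (product 3.33). These are small counts from 1 plate and are given as a description. None of the 23 endocrine-marker cells of the dorsal bud had Trib3 or Chac1. As only 12.8% and 6.98% of all dorsal cells had these genes, their absence there says little. A list of 25 further Atf4 pathway genes, chosen by name, moved both ways between the dorsal plates. In 2B minus 2A 6 were higher (background 29.8%) and 4 lower (8.12%), with a median of -0.055 against 0.50 over all genes. The genes furthest below 0, picked here for their size, were 3: Stc2, a secreted glycoprotein, was in 37 of 48 against 6 of 38 cells, Ddit4, an inhibitor of mTORC1, in 43 against 10, and Vldlr, a lipoprotein receptor, in 29 against 7. Their differences of mean log2 (2B minus 2A) were -4.33, -4.03 and -2.999. Both plates are labelled E10.5 dorsal bud, and what set them apart was not tested. Sesn2, a stress-induced inhibitor of mTORC1, was in 31 of 82 foregut cells, 18 of 48 on 2A, 10 of 38 on 2B, 2 of 27 ventral, 3 of 78 liver cells and 10 of 73 at E14.5.

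The synthetases were found nearly without gaps in the foregut and with many gaps at E14.5 and in the liver. The median cell had 19 of the 20 in the foregut (12 to 20), 14 on 2A (6 to 20), 16 on 2B (9 to 20), 10 on plate 3 (4 to 17), 10 on 5A (2 to 17) and 9 on 4A (1 to 15). All 20 were found in 28 of 82 foregut, 1 of 48 and 6 of 38 dorsal cells and in none elsewhere. Within plates this number ran with genes detected per cell (Spearman rho 0.60, 0.77, 0.64, 0.82, 0.88 and 0.72 on 1A, 2A, 2B, 3, 5A and 4A; cells of a plate share library and depth). As a share of reads, which does not count gaps, the groups lay closer. The 20 genes took a median of 4899 of every 1000000 reads (ppm) in the foregut, 3310 on 2A, 3807 on 2B, 3105 on plate 3, 3941 on 5A and 3330 on 4A. Thinning each cell to 500000 reads left medians of 19, 15, 10, 9 and 9 synthetases in foregut, dorsal bud, ventral bud, liver and E14.5. Mitochondrial synthetases, a separate set of 17 genes, had their highest median share on 2A (1407 ppm) against 1098 in the foregut.

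**Figure D3:**
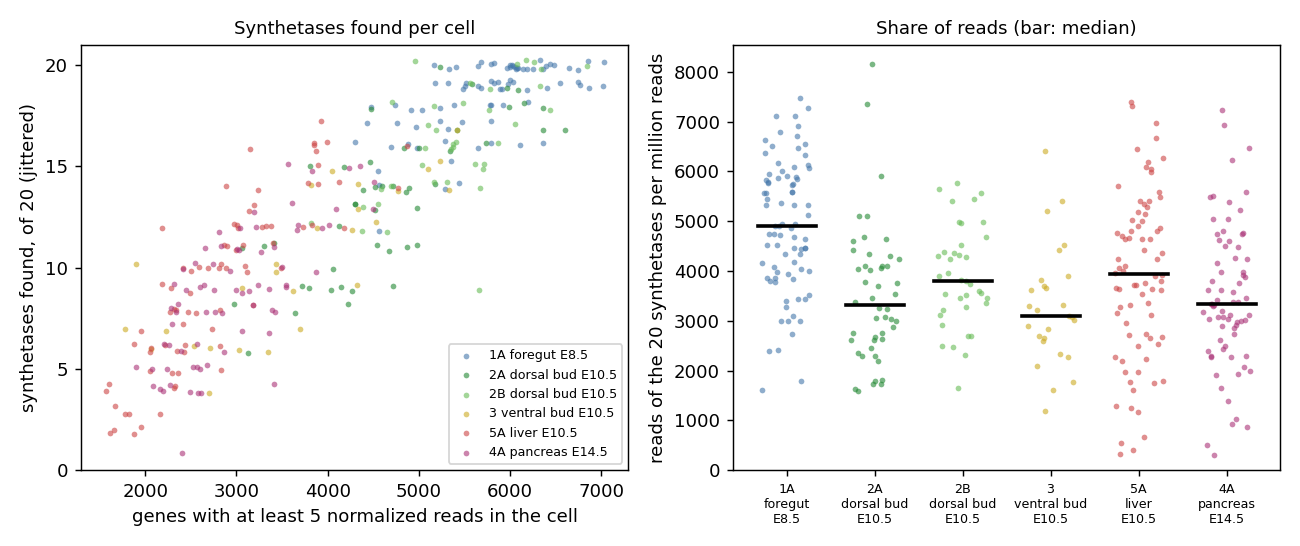
Left, number of the 20 synthetases found in each cell (vertical, jittered) against genes detected in that cell (horizontal), coloured by plate; right, reads of the 20 genes in ppm of the cell's reads, by plate, with bars at the median. The number found climbs with genes per cell on each plate, while the median shares of reads run only from 3105 to 4899 ppm.

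Single enzymes kept different ranks. Eprs, which charges both glutamate and proline, and Kars, the lysine enzyme, both members of the multisynthetase complex, were in 82 of 82 foregut cells and in 53 and 51 of 73 at E14.5. Their means were 8.51 and 8.46 in the foregut and 6.06 and 5.96 at E14.5. Compared per length, Kars was the highest member in the foregut (227 normalized reads per kilobase) and at E14.5 (174), and Gars, the glycine enzyme, in the dorsal bud (169). Among ventral values that of Gars was furthest below the dorsal level, with the gene found in 10 of 27 cells (mean 3.07 ± 3.89; lowest 0, median 0, highest 9.82). On 2A it was in 36 of 48 cells (6.47 ± 3.89; 0, 8.55, 10.80) and on 2B in 36 of 38 (7.81 ± 1.90; median 8.31, highest 9.85), so the ventral difference of -4.00 exceeded the 1.34 between dorsal plates. Nars, the asparagine enzyme, was in 23 of 27 ventral and 62 of 78 liver cells. Cars, the cysteine enzyme, was in 7 and 16 of those, 65 of 82 in the foregut, 27 of 48 on 2A, 25 of 38 on 2B and 16 of 73 at E14.5. Aars, the alanine enzyme, differed most between plates of one group: 17 of 48 cells on 2A and 28 of 38 on 2B, with means of 2.79 ± 3.90 and 6.04 ± 3.62. The other 14 synthetases had plate means between 2.01 (Mars, ventral bud) and 8.32 (Vars, foregut).

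Each group was then set against the dorsal bud, the control shared by all 4 comparisons, so their values are not independent and are given side by side. A gene counts as higher or lower where the mean log2 differs by at least 1, and the background is the share of all genes found in at least 25% of the cells of either group. All 20 synthetases and 9 of the 13 genes of Atf4 and its targets passed that filter. Ddit3, Trib3, Chac1 and Slc7a11 did not, and they are counted below all the same. Between the 2 dorsal plates alone (2B minus 2A), 9 of 20 synthetases were higher (background 29.8%) and 0 lower (8.12%), with a median of 0.77 over the synthetases and 0.50 over all genes. The range ran from 0.06 (Lars) to 3.26 (Aars). Atf4 and its targets had 4 higher and 2 lower and a median of 0.10.

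In the ventral bud most synthetases and Atf4 were lower than in the dorsal bud, while Phgdh and Psph were higher. Of 20 synthetases 0 were higher (background 4.41%) and 14 lower (background 41.4%), and their median difference was -1.62 against -0.79 over all genes (-2.24 against plate 2B and -0.97 against plate 2A). Kars (0.56) and Nars (0.41) were the positive ones. Atf4 and its targets had 2 higher (Phgdh 2.30, Psph 1.12) and 6 lower, with a median of -0.97 and Atf4 at -4.22. Genes per cell were also fewer (3695 against 4570 and 5390). In linear means, which weigh high cells more, the synthetase median was -0.07 against 0.02 over all genes.

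In the liver the 3 serine enzymes were higher and most synthetases lower than in the dorsal bud. Of 20 synthetases 1 was higher (Nars 1.23; background 7.34%) and 14 were lower (background 60.5%), a share near that of all genes, with a median of -1.75 against -1.30 (-2.46 against plate 2B and -1.02 against plate 2A). Sars, the serine enzyme of tRNA charging, was lowest at -3.54. Atf4 and its targets had 3 higher (Phgdh 2.28, Psat1 2.19, Psph 1.85) and 5 lower, among them Atf4 (-2.47) and Shmt2 (-2.65), and a median of -0.49. The direction of both lists was not stable: in linear means the synthetase median was 0.57, against 0.38 over all genes, that of Atf4 with its targets was 0.21, and Atf4 and Shmt2 turned positive (0.15 and 0.32). Over the members found in at least 25% of cells Atf4 with its targets had 0.20. Linear means weigh cells with high values of a gene more, and the positive liver cells had the second highest mean level of Atf4 of the 6 plates (7.38). Whether this bears on the changes of sign was not tested.

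At E14.5 the differences of all 33 members from the dorsal bud were negative, from -0.02 (Ddit3) to -4.33 (Shmt2). Of 20 synthetases 16 were lower (background 62.6%) and 0 higher (4.45%), with a median of -2.08 against -1.29 (-2.69 against plate 2B and -1.47 against plate 2A). Qars, the glutamine enzyme, was lowest at -3.33 and Aars stood at -0.54, which turned to 0.90 against plate 2A alone and to 0.37 in linear means. Atf4 and its targets had 9 lower and 0 higher and a median of -1.57, with Atf4 at -3.27 and Phgdh at -2.80. Most E14.5 cells carried mesenchyme markers (summed mean level of 10 markers 55.5, against 4.11 and 9.40 on 2A and 2B). In epithelial-marker cells alone the medians were -0.999 for synthetases, -0.24 for Atf4 and its targets and -1.05 over all genes. There 10 of 20 synthetases were lower (background 51.5%), a share near that of all genes. In linear means the synthetase median was -0.02 against 0.12 over all genes.

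In mean log2 the foregut stood above the dorsal bud in the synthetases and serine enzymes, and not in Atf4. Of 20 synthetases 15 were higher (background 32.1%) and 0 lower (7.73%), with a median of 1.61 against 0.58 (0.95 against plate 2B and 2.04 against plate 2A). Aars was highest at 2.82, but this was within the 3.26 between the dorsal plates, and Qars lowest at 0.40. Atf4 and its targets had 6 higher and 0 lower and a median of 0.05, with Atf4 at -0.21, Shmt2 at 0.05 and Trib3 at -0.76. In linear means only 1 of 20 synthetases was higher (background 8.41%) and 0 lower (10.5%), with a median of 0.46 against 0.09 over all genes. Atf4 and its targets then had 1 higher and 4 lower and a median of -0.29. Genes per cell were more (5793.5) and 60 of 82 cells carried neural tube markers. The 22 foregut cells without them had 3947 ppm of synthetase reads against 5410 in those with them, at 5782 and 5841 genes per cell.

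Complex and free enzymes did not part ways. The 8 genes of the multisynthetase complex had median differences of -1.60, -1.75, -2.24 and 1.59 in ventral bud, liver, E14.5 and foregut, and the 12 free ones -1.62, -1.74, -1.94 and 1.71. Synthetases with the composite motif had a foregut median of 2.32 (5 genes) and those without it 1.55 (8 genes). For E14.5 these were -1.86 and -2.34, for the liver -1.73 and -1.65, and for the ventral bud -1.64 and -2.04. Between the dorsal plates (2B minus 2A) they were 1.55 and 0.77. Among Atf4 and its targets the foregut went the other way, with -0.15 with the motif (4 genes) and 1.54 without it (9 genes). Of those 4 only Asns passed the filter. No link between motif and level was tested.

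Within the liver, the serine pathway was split along hepatoblast markers, which were chosen without using the members. The 47 cells with at least 3 of them were compared with the other 31, a contrast added after seeing the data. Phgdh was 10.26 ± 1.49 in marker cells (lowest 2.64, median 10.67, highest 12.48), in 47 of 47 cells (interval from 92.5%), and 2.40 ± 3.86 in the others (0, 0, 10.66), in 9 of 31 (29.03%, 14.2 to 48.04%). Psat1 was 9.27 ± 3.00 (0, 10.27, 12.52; 43 of 47) against 0.56 ± 2.16 (0, 0, 8.69; 2 of 31). Psph was 6.33 ± 4.01 (34 of 47) against 0.34 ± 1.53 (1 of 31). The differences of mean log2 were 7.87, 8.72 and 5.999, so nearly all liver signal of this pathway lay in the hepatoblast-marker cells.

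Differences of the other members were smaller, and the list of targets stood near all genes. Of the 12 targets without Atf4, the serine enzymes included, 7 were higher and 0 lower, with a median of 1.53. Over all genes 58.5% were higher and 9.99% lower, with a median of 1.29. Shmt2 was found in 22 of 47 against 5 of 31 cells, Mthfd2 in 24 against 6, Asns in 20 against 8 and Atf4 in 19 against 7. Over the 5 serine and glycine genes the median difference was 5.999, with 5 of 5 higher. Of 20 synthetases 17 were higher (background 58.5%) and 0 lower (9.99%), with a median of 2.65 against 1.29 over all genes. Genes per cell were 3092 against 2317, and as a share of reads the synthetases took 4653 against 2677 ppm and the 12 targets without Atf4 2757 against 522. After thinning, the differences for Phgdh, Psat1 and Psph were 7.39, 8.24 and 5.55.

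The ventral bud also held 20 cells with hepatoblast markers. Psat1 was found in 13 of these and in 0 of the other 7, which are too few cells to bound the share closely. Between the 47 liver and 20 ventral cells of this class, Psat1 differed by 4.85 and Atf4 by 2.63 (19 of 47 against 2 of 20 cells), the 5 serine and glycine genes had a median of 2.65 with 5 higher, and the synthetases 0.88 with 9 higher (background 27%) and 0 lower (27.4%). Plate and organ cannot be told apart in that comparison.

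In the dorsal bud, endocrine-marker cells were low in Phgdh and high in Sesn2. The 23 cells had Phgdh at 0.99 ± 2.13 (lowest 0, median 0, highest 7.07), in 4 cells (17.4%, 4.95 to 38.8%), against 6.26 ± 3.35 (0, 7.82, 9.64) in 49 of the 63 others (77.8%, 65.5 to 87.3%). Sesn2 was 6.40 ± 4.26 (0, 8.57, 11.25), in 16 of 23 (69.6%, 47.1 to 86.8%), against 1.43 ± 2.93 (0, 0, 8.64), in 12 of 63 (19.05%, 10.2 to 30.9%). Both differences, -5.27 and 4.96, held on each plate: Phgdh was in 3 of 14 against 22 of 34 cells on 2A and 1 of 9 against 27 of 29 on 2B (-3.89 and -6.96), and Sesn2 in 10 of 14 against 8 of 34 and 6 of 9 against 4 of 29 (4.37 and 5.73). Genes per cell were alike, at 5003 and 4980.

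Other members split both ways in these cells. Cars was found in 7 of 23 against 45 of 63 cells (difference -3.45; -3.38 on 2A and -3.50 on 2B) and Vars, the valine enzyme, in 13 against 52 (-2.70). Shmt2 was in 13 of 23 against 51 of 63 (-2.59), while Rars, the arginine enzyme, was higher by 1.62. Atf4 was in 16 of 23 against 48 of 63 cells, with means of 4.79 ± 3.13 and 5.16 ± 3.06. Over the 20 synthetases 2 were higher (background 21.2%) and 4 lower (24.5%), shares no larger than those of all genes, with a median of -0.62. Among dorsal cells without endocrine markers, the 13 without epithelial markers had a larger share of synthetase reads than the 50 with them (4957 against 3400 ppm; genes per cell 5580 and 4875.5), and 17 of 20 synthetases were lower in the epithelial ones (background 33.5%) and 0 higher (11.8%). Slc3a2 was in 13 of those 13 and 33 of those 50 cells.

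At E14.5, the 12 endocrine-marker cells stood above the 58 mesenchyme-marker cells in Gars and Atf4 and had no Phgdh. Gars was 8.76 ± 2.98 (lowest 0, median 9.36, highest 11.37), in 11 of 12 cells, against 3.21 ± 4.34 (0, 0, 10.51), in 21 of 58, a difference of 5.55. Atf4 was 4.44 ± 4.25, in 7 of 12, against 1.22 ± 2.75, in 10 of 58 (3.22), and Slc3a2 was in 9 of 12 against 17 of 58 (3.77). Phgdh was in 0 of 12, which allows a share of up to 25%, against 18 of 58, and Psat1 in 0 of 12 against 10 of 58. Over the 20 synthetases 5 were higher (background 41.2%) and 2 lower (19.9%), with a median of 0.49 against 0.66 over all genes, so the Gars value was not shared by the list. Genes per cell were 3413.5 and 2748.5. Phgdh was thus found in few or none of the endocrine-marker cells on each of the 3 plates that held at least 9 of them.

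**Figure D4:**
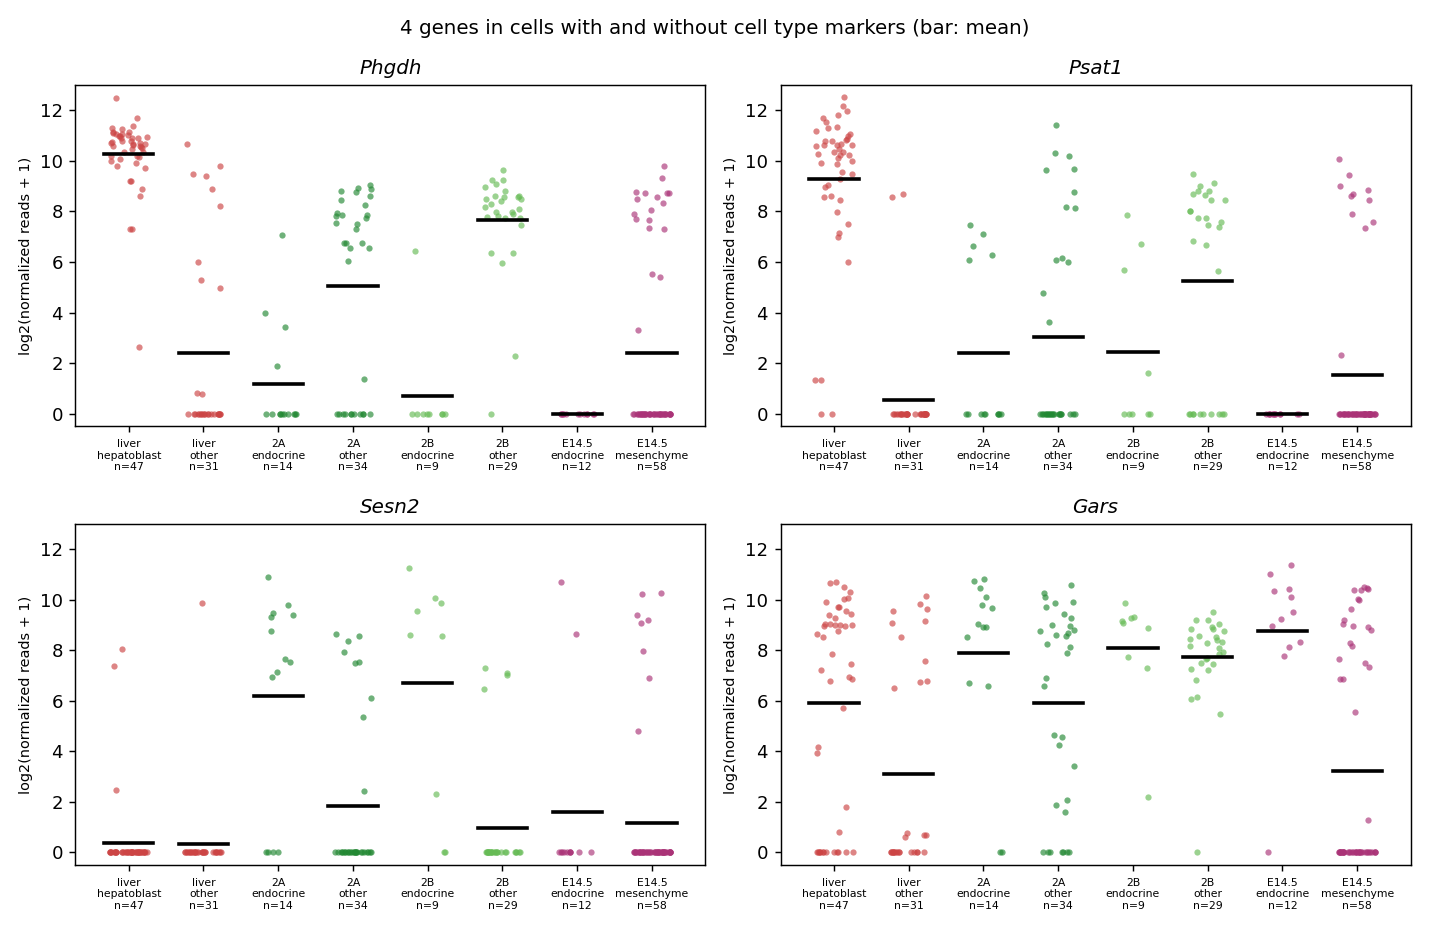
Phgdh, Psat1, Sesn2 and Gars in each cell, as log2(normalized reads + 1) on the vertical axes, for cells grouped by plate and cell type markers on the horizontal axes; points are cells and bars are means. Phgdh is in 47 of 47 hepatoblast-marker liver cells and 0 of 12 endocrine-marker cells at E14.5, and Sesn2 is highest in dorsal endocrine-marker cells.

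Co-variation with Atf4 was weak from cell to cell. It was measured as Spearman rho within each plate, over members found in at least 25% of its cells, and cells of a plate share library, depth and genes per cell. Of the synthetases 20 could be used on 1A, 2A, 2B and 3 and 19, without Cars, on 5A and 4A. Their median rho was 0.01 on 1A, 0.20 on 2A, 0.12 on 2B, 0.04 on plate 3, 0.14 on 5A and 0.03 on 4A, and over all genes tested 0.03, 0.04, 0.03, 0.01, 0.06 and 0.03. The other targets, 8, 8, 8, 5, 7 and 2 of 12 of which could be used, had -0.01, 0.31, 0.20, -0.03, 0.18 and 0.18. Averaged over plates this was 0.09 for synthetases and 0.14 for targets. Atf4 itself had a rho with genes per cell of 0.23, 0.20, 0.33, 0.17, 0.26 and 0.36. With ranks adjusted for genes and reads per cell, the synthetase medians were 0.01, 0.19, 0.09, -0.06, 0.05 and -0.04, and those of the targets -0.02, 0.25, 0.19, -0.06, 0.09 and 0.14. On plate 3 these values rest on 3 Atf4 cells.

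The dorsal plates gave most of the larger values. The share of all genes at a rho of 0.3 or more was also larger there than on 1A, 5A and 4A. At a rho of at least 0.3 there were 0, 4, 3, 1, 1 and 0 of these synthetases, against backgrounds of 0.648%, 5.2%, 5.39%, 7.54%, 1.88% and 1.92% of all genes on 1A, 2A, 2B, 3, 5A and 4A, and 0, 5, 2, 0, 1 and 1 of the other targets. On 2A (48 cells) they were Ddit3 (0.51), Shmt2 (0.51), Kars (0.45), Aars (0.44), Cars (0.41), Nars (0.37), Mthfd2 (0.37), Psat1 (0.32) and Slc3a2 (0.30), while Dars, the aspartate enzyme, had -0.31. On 2B (38 cells) they were Rars (0.53), Asns (0.35), Hars (0.35), Mthfd2 (0.33) and Dars (0.32). Mthfd2 alone reached 0.3 on both dorsal plates, and Dars had opposite signs on them. In the foregut, where Atf4 was in 60 of 82 cells, no member reached 0.3. Only 0.648% of all genes did there, so this absence says little about the members. With ranks adjusted for genes and reads per cell, 0, 4, 1, 1, 0 and 0 synthetases and 0, 3, 1, 0, 0 and 1 other targets stayed at 0.3 or more, against backgrounds of 0.499%, 4.34%, 3.74%, 7.03%, 0.645% and 0.665% of all genes on 1A, 2A, 2B, 3, 5A and 4A. The values that dropped below it were those of Psat1 and Slc3a2 (both 0.25) on 2A, Asns (0.24), Hars (0.24) and Dars (0.25) on 2B, and Psph and Iars (both 0.24) on 5A.

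Atf4-positive cells held somewhat more synthetases on each plate, but not more of the other targets on plates 3 and 4A. The median number of synthetases was 19 in positive and 18 in negative foregut cells, 14 and 11 on 2A and 17 and 14 on 2B. It was 15 and 10 in the ventral bud, where only 3 cells were positive, 12 and 8 in the liver, and 9.5 and 8 at E14.5. For the 12 other targets the medians were 7 and 6, 4 and 3, 5 and 4, 3 and 3.5, 5 and 3, and 2 and 2 in the same order. Genes per cell moved the same way, with 5985.5 and 5427 in the foregut and 4831 and 4294 on 2A. As a share of reads the synthetases had medians of 4883 and 4919 ppm in foregut cells with and without Atf4, 3700 and 2765 on 2A, and 3970 and 3535 on 2B. These were 3222 and 3086 on plate 3, 4590 and 3734 on 5A, and 3435 and 3314 on 4A.

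**Figure D5:**
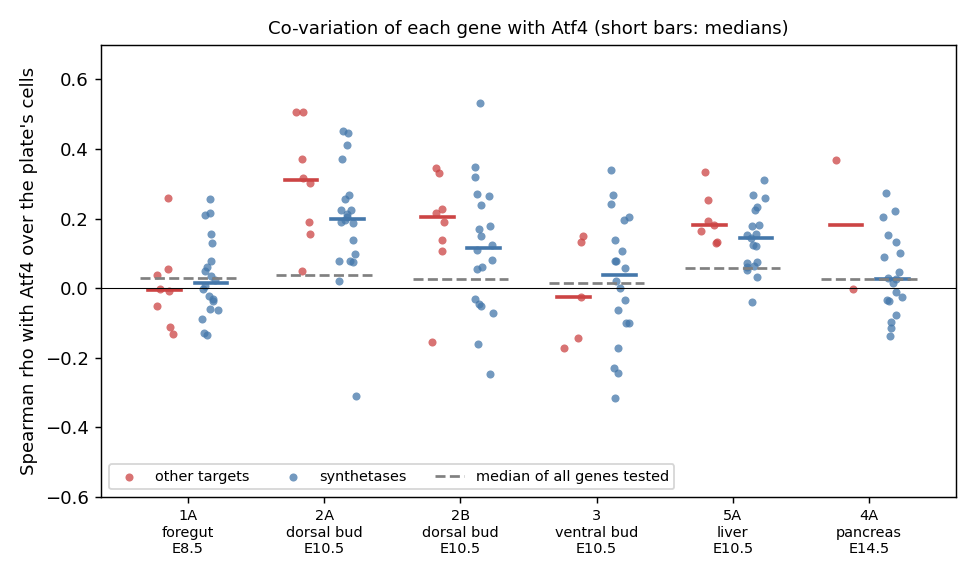
Spearman rho of each gene with Atf4 over the cells of a plate (vertical axis) on the 6 plates (horizontal axis); points are synthetases and other targets found in at least 25% of the cells, short bars their medians, and dashed lines the median of all genes tested. Medians stay near 0 in the foregut and reach 0.20 and 0.31 on plate 2A.

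Of 2615 genes found in at least 25% of the cells of every plate, those with the highest mean rho with Atf4 over the 6 plates were no members. They were Usp15 (0.26), ENSMUSG00000106106 (0.23), Prkrip1 (0.23), Nup188 (0.23), Tor1a (0.22), Ak6 (0.22), Haus7 (0.21), Trmt6 (0.21), Atp5a1 (0.21) and Snrpd3 (0.21). Among members that could be ranked, Lars, the leucine enzyme, was 18th (0.19, positive on 6 of 6 plates), Mars 35th, Slc3a2 91st and Dars 2415th. All of these values are weak.

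Synthetases ran together with each other more than with Atf4 in the foregut. There the 190 pairs of synthetases had a median rho of 0.15, with 170 positive and 20 at 0.3 or more. Over 80601 pairs of every 20th gene tested the median was 0.02, with 1.43% at 0.3 or more. The 15 foregut pairs of serine, glycine and asparagine genes had a median of only 0.07, with 1 at 0.3 or more. On 2A and 2B the synthetase medians were both 0.10, with 23 and 25 pairs at 0.3 or more (background 3.40% and 5.91%). On plate 3 the median was 0.06 with 20 of 190 pairs at 0.3 or more (9.41%), and -0.0016 after adjustment for genes and reads per cell. On 5A it was 0.12 with 7 of 171 (3.54%), and 0.03 with 0 pairs after adjustment. On 4A the median was 0.03 with 1 of 171 pairs at 0.3 or more (1.01%). Among 346 ranked pairs of members, the largest mean rho after adjustment for genes and reads per cell belonged to Phgdh with Cars (0.29 over 4 plates), Phgdh with Psat1 (0.28 over 5), Psat1 with Psph (0.28 over 4) and Nars with Farsa (0.27 over 6). In the liver, 44 cells held both Phgdh and Psat1, of 56 and 45 that held each, where the product of their shares gives 32.3. Most cells with either gene carried hepatoblast markers, as given above. This overlap and the liver rho of the pair therefore cannot be told apart from the mix of cell types.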

How the data were processed

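Single GFP-positive cells were sorted into plates and sequenced as Nextera XT libraries, per the labels' protocols. STAR 2.5.3, Cufflinks and Cuffdiff 2.2.1 with GRCm38 are named, per the submitters' processing notes. How strand was used in counting, which annotation served and how cells were scaled is not given in the sources used here. One table of log2 values was what the authors deposited. Undoing log2(reads / size factor + 1) turned 1647510 of 1647530 deposited values into whole reads within 0.01, so they were read in that unit, and empty entries were taken as 0.

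Means, SDs and medians over cells were computed with a pseudocount of 1. Detection means at least 5 normalized reads, intervals of shares are exact Clopper-Pearson 95% intervals, and a limit given for a share of 0 is 3 divided by the number of cells. Reads of a PCR library are not independent molecules. The labels name no embryo, so no test was run. Differences of at least 1 are counted. Cell classes need at least 2 epithelial markers or 3 markers of another type, and such contrasts were added after seeing the data. The members, lists and markers were chosen with earlier results of these data known. Besides members, the genes named are the 10 with the highest mean rho with Atf4 and up to 4 of a list with the largest differences. Gene coordinates and lengths are from GENCODE M21, and promoters are from RefSeq (GRCm38.p6); the matches of 1 synthetase gene are not reported here. The steps were tested on simulated data. Alternatives were pseudocounts of 0.1 and 10, linear means, other scalings, thinning to 500000 reads, cells with at least 2000 genes, cells with epithelial markers or with Atf4, cells without markers of other types, filtered members and each dorsal plate. Tools were python 3.11.15, numpy 2.4.6, pandas 2.3.3, scipy 1.17.1 and matplotlib 3.10.9.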

Additional observations from a re-analysis of the deposited data

How the results depend on the processing

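Of 514 alternative values for the medians and the single genes named, 384 moved by less than the spread between the dorsal plates, 126 moved by more and 4 of at least 1 in size changed sign. The spread is the SD of the values of the dorsal plates. Leaving out a dorsal plate cannot move a single gene's group difference by more than this SD, so those values counted as unmoved by construction. All foregut and dorsal cells had at least 2000 genes, so that setting left their comparison unchanged. For liver and E14.5 marker classes the SD came from the dorsal endocrine-marker contrast. The 384 is therefore no measure of stability. The 4 sign changes came with linear means in the liver (synthetases 0.57, Atf4 0.15, Shmt2 0.32) and, for Psph in the ventral bud, with Atf4-positive cells alone (-0.069, which rests on 3 ventral cells). Smaller values changed sign too: Atf4 with its targets in the liver (from -0.49) and the foregut (0.05, down to -0.29 in linear means), Aars at E14.5 (-0.54, up to 1.45 without cells carrying markers of other types), Atf4 in the foregut (-0.21, 0.14 without plate 2A) and Qars there (0.40, -0.029 in linear means). Linear means also gave synthetase medians of -0.074 (ventral bud), -0.024 (E14.5) and 0.46 (foregut), against 0.02, 0.12 and 0.09 over all genes. For Atf4 with its targets they gave 0.21 (liver) and -0.88 (E14.5). Pseudocounts of 0.1 and 10 gave -3.05 and -1.13 for synthetases at E14.5, and for Atf4 with its targets -2.39 and -0.91 at E14.5 and -1.60 and -0.41 in the ventral bud. In epithelial-marker cells alone the synthetase medians were -0.25 (liver) and -0.999 (E14.5), against -0.90 and -1.05 over all genes. Those of Atf4 with its targets were -0.46 (ventral bud), -0.12 (liver), -0.24 (E14.5) and 0.78 (foregut), against -0.72, -0.90, -1.05 and 0.61. Without cells carrying markers of other types, E14.5 had -0.84 for synthetases and -0.58 for Atf4 with its targets, and the ventral bud -0.63 for the latter. Atf4 with its targets had -0.0035 in the liver among Atf4-positive cells. Keeping the members found in at least 25% of cells gave -1.23, 0.20, -2.33 and 2.05 (ventral bud, liver, E14.5, foregut). With either dorsal plate left out these genes ran from -1.28 to -0.97 in the ventral bud, from -2.09 to -1.40 at E14.5 and from 0.02 to 0.51 in the foregut. In hepatoblast-marker liver cells the synthetase median was 3.51 and 1.65 with pseudocounts of 0.1 and 10, 1.08 in linear means and 1.75 in cells with at least 2000 genes, and the serine and glycine median 8.32, 3.74 and 3.36 (pseudocounts, then linear means). Among Atf4-positive cells the mean rho of the synthetases was 0.023 and that of the targets 0.08, with -0.054 in the foregut and -0.0079 in the liver; with one plate left out the synthetases ran from 0.07 to 0.10. Targets found in at least 10% of E14.5 cells had -0.053 there, against 0.18. Beyond the construction of each alternative the cause of these shifts was not tested. No paired analysis was possible because the values come from no test and replicate numbers only name cells. Single cells without a transcript at these depths need not lack it.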

Other observations

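In the liver, genes of the endoplasmic reticulum stress response stood above the dorsal bud more often than all genes did. Of 14 chaperones and other genes of the unfolded protein response in the endoplasmic reticulum, 7 were higher than in the dorsal bud (background 7.34%) and 2 lower (60.5%), with a median difference of 1.03 against -1.30 over all genes. Herpud1, which helps clear misfolded protein, led at 3.28, followed by Sdf2l1 (2.30), a chaperone cofactor, and Manf (1.80), a secreted stress protein. In the other comparisons the median of this list was -0.47 (ventral bud), -1.26 (E14.5, with 12 of 14 lower against 62.6% and a median of -1.29 over all genes) and 0.92 (foregut). Genes of translation elongation and initiation had medians of -0.21 (liver), -0.01 (ventral bud), -1.09 (E14.5) and 0.84 (foregut). Over all genes the medians were -1.30, -0.79, -1.29 and 0.58. The list thus stood above all genes by more in the liver and the ventral bud than in the other comparisons. The 17 mitochondrial synthetases had medians of -0.65, -0.80, -1.31 and 0.81 in ventral bud, liver, E14.5 and foregut. Over all genes these were -0.79, -1.30, -1.29 and 0.58.

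Of 10 targets of p53, 8 were lower in the liver than in the dorsal bud, with a median of -1.41, beside 60.5% lower and a median of -1.30 over all genes. Mdm2, the ubiquitin ligase that holds p53 down, differed by -3.22 and Cdkn1a, a brake on the cell cycle, by -3.16. In the foregut the list's median was -0.46 with Cdkn1a at -3.93, while the median over all genes there was 0.58.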
